A study of Mus musculus with 10 samples.

Results

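The 9 genes described here are Agt, Ren1, Ace, Agtr1a, Agtr1b, Agtr2, Enpep, Mme and Lnpep. They were chosen by symbol, and all 9 were found among the 54532 genes of the table. The lungs came from wild-type C57BL/6J mice, collected at postnatal day 30 (P30). In the IPF group, the abdominal aorta had been punctured through into the inferior vena cava at P7, which leaves a fistula that sends more blood through the lungs. In the sham group the vessels were exposed at P7 and not punctured. Both groups held 5 samples, and RNA of frozen whole lung was sequenced, so each value is a mix of all lung cell types.
Angiotensinogen, the precursor of the angiotensins, was measured higher in all 5 lungs with increased pulmonary flow (IPF) than in all 5 sham lungs, at 1.21 ± 0.183 against 0.566 ± 0.323 FPKM (SD, n = 5 each). Its limma adjusted p of 0.0603 did not pass 0.05. Ace and Agtr1a, the converting enzyme and the main angiotensin II receptor, were below every sham sample in the same 4 of the 5 IPF samples, while IPF replicate 5 was above the sham range for Ace and within it for Agtr1a. The peptidases Enpep, Mme and Lnpep stayed within 1.16-fold of sham, and no read of the renin gene Ren1 was found.
In this system, renin cuts angiotensin I from angiotensinogen. Angiotensin-converting enzyme (ACE), which coats the capillary endothelium of the lung, trims it to angiotensin II, a peptide that constricts vessels. Angiotensin II acts on the AT1 receptors (Agtr1a and Agtr1b in mice) and on the AT2 receptor (Agtr2). Other membrane peptidases take the peptides further: aminopeptidase A (Enpep) shortens angiotensin II, neprilysin (Mme) makes angiotensin 1-7 from angiotensin I, and the cystinyl aminopeptidase encoded by Lnpep binds angiotensin IV. Circulating angiotensinogen comes mostly from the liver and circulating renin from the kidney.

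Values are FPKM, read fragments scaled to gene length and to library size, as the authors deposited them. Between 15483046 and 19026843 reads per sample lay on genes, with 16250190 to 19026843 in the IPF and 15483046 to 17818542 in the sham group. Xist, the RNA of the inactive X chromosome, was at 26.8 to 43.2 FPKM in the IPF samples and at 0.0301 to 0.0767 FPKM in the sham samples. Each of 4 Y-linked genes had 0 reads in all 5 IPF samples and reads in all 5 sham samples. The fistula and the sex-linked difference therefore cannot be told apart in any comparison below. Of 14 circadian clock genes, 13 passed the test, 3 higher and 10 lower in IPF. The summed level of the 14 clock genes in IPF replicate 5 was 170.5 FPKM, between the 93.8 to 112.03 FPKM of the other IPF samples and the 303.2 to 360.4 FPKM of the sham samples. The labels do not give the hour of collection, so the fistula and a difference in that hour cannot be told apart below either. Sham replicate 1 had the most genes above 0, 25486, where the other samples had 22475 to 23575. The lung marker Sftpc, of alveolar type 2 cells, was at 9437 to 16514 FPKM in all samples. Of 5 kidney genes 2 had no read in any sample, and the summed level of 5 liver genes was at most 0.788 FPKM.

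The sequences before the start sites of Agt, Ace and Ren1 are shown because these genes stand for the precursor, the most abundant member and the member with no read. Each is the 250 bases before the RefSeq start site, read along the gene, from the RefSeq promoter table of GRCm38.p6. Capitals mark TATAAA and GGGCGG on either strand. CCAAT was searched too, is in 33.8% of all windows, and is in none of these 3.
Agt, chr8:124569707-124569956, minus strand: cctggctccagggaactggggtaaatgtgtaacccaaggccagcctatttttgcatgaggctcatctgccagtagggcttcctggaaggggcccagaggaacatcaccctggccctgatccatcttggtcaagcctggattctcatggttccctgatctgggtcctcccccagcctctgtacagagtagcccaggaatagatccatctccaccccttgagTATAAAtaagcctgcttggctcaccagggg
Ace, chr11:105967698-105967947, plus strand: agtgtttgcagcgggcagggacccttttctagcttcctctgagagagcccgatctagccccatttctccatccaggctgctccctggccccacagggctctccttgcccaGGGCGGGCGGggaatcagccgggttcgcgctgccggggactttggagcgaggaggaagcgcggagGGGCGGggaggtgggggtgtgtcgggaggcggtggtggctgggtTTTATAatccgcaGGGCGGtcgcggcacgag
Ren1, chr1:133350424-133350673, plus strand: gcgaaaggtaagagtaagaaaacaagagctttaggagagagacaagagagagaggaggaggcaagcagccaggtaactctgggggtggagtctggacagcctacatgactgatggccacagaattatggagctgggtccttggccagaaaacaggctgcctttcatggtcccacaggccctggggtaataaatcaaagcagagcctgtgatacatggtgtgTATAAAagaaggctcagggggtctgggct
The letters TATAAA, those of the TATA box, begin at position -30 of Agt and -29 of Ren1, counted from the start site. In the Ace window shown they lie on the opposite strand, at position -31. They occur in 12.4% of all 32851 promoter windows of this length. The Ace window shown holds 4 copies of GGGCGG, the letters of the GC box, of which a pair overlap, and 32.7% of all windows hold at least 1. The table holds 11 windows for 8 of the 9 genes. Ace has another, before a start site inside the gene at 105975189, which holds CCAAT and neither TATAAA nor GGGCGG. None of the 11 holds CACGTG (the E-box, in 6.02% of all windows) or TTATGTAA (the D-box, in 0.819%), the letters through which clock proteins bind DNA. These matches describe the letters only and say nothing of binding.

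The 9 genes spanned the whole range from absent to abundant. In sham lungs, Ace had a mean of 306.4 ± 16.7 FPKM (SD, n = 5), 7.18 times that of Enpep at 42.7 ± 2.42 FPKM (SD, n = 5). Mme (17.8 FPKM), Lnpep (14.5 FPKM) and Agtr1a (11.97 FPKM) followed. Mme and Lnpep overlapped between sham samples but not between IPF samples, and Lnpep and Agtr1a overlapped in both groups. Agtr1a lay 21.2 times above Agt, at 0.566 FPKM. Agt and Agtr1b (0.340 FPKM) overlapped between sham samples and were apart in the IPF samples. Agtr2 and Ren1 were at the bottom, and these last neighbours overlapped in both groups.

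**Figure D1:**
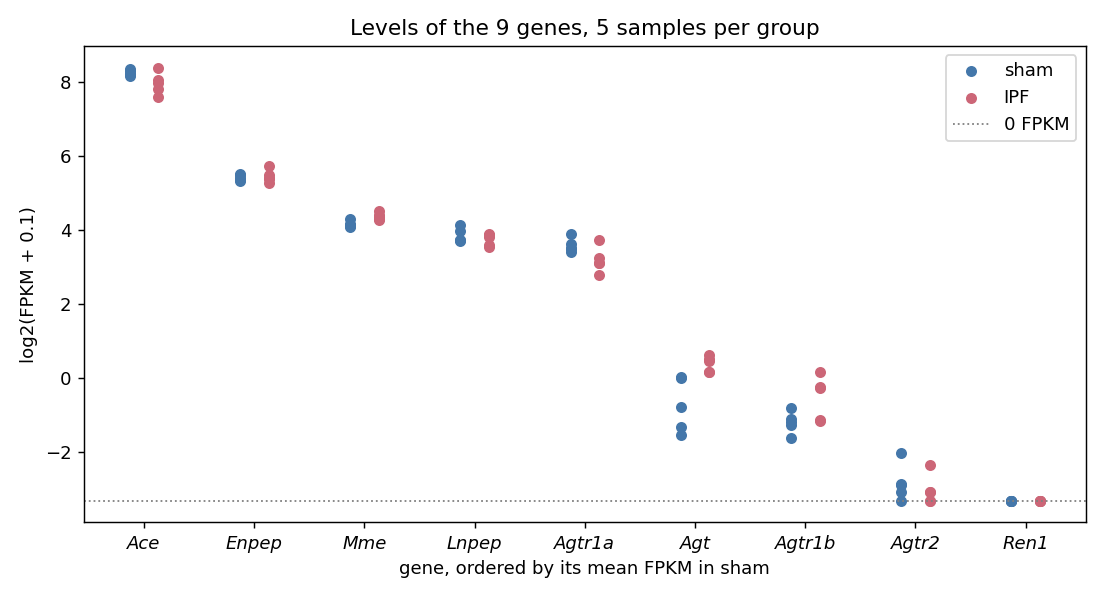
Levels of the 9 genes in whole lung at P30, as log2(FPKM + 0.1) on the vertical axis, with 1 point per sample and 5 samples in each group (blue sham, red IPF). Genes are ordered along the horizontal axis by their sham mean, from Ace at 306.4 FPKM to Ren1 at 0, and the dotted line marks 0 FPKM.

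The question asked of these genes was whether lungs under increased flow differ from sham lungs. Each gene with a mean of at least 0.1 FPKM over the 10 samples was tested with limma on log2(FPKM + 0.1), and p-values were adjusted by Benjamini-Hochberg across 20448 genes. This kept 7 of the 9 members, and Ren1 and Agtr2 fell below it. None of the 7 had a limma adjusted p under 0.05, while 5.85% of all genes tested did, and none also had a log2 fold change beyond 1 in size, which 1.14% of all genes did. With limma voom on the reads recovered from the FPKM values, 1 of the 7 passed, Agt, and so did 1464 of all 20448 genes. At an unadjusted p under 0.05 from limma there were 5 of the 7, Agt, Agtr1b and Mme higher and Ace and Agtr1a lower, and 19.5% of all genes. The members went both ways, 4 higher and 3 lower, and their median log2 fold change was 0.04, where that of all genes was 0.0016. All fold changes carry this added 0.1, and so are too small for genes near 0. Intervals are 95% intervals of the log2 fold change from limma. Nothing in the labels states that the samples came from separate litters, so the p-values measure the spread between these samples only. Fewer cells of a type and less RNA per cell cannot be told apart in whole lung. All 5 B cell markers, among them Ms4a1, passed the limma test higher in IPF, with a median log2 fold change of 0.88 and a summed level of 31.7 to 47.8 FPKM against 17.1 to 27.96 FPKM in sham samples. Their part in the results on the members was not tested.

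Agt encodes angiotensinogen, the only substrate of renin in this system. It lies on chromosome 8 of GRCm38, 124556534 to 124569706 (ENSMUSG00000031980, protein coding). The 5 IPF samples, from replicate 1 to 5, were at 1.03, 1.02, 1.43, 1.28 and 1.32 FPKM. The sham samples, in the same order, were at 0.898, 0.914, 0.296, 0.476 and 0.243 FPKM. The groups did not overlap, although sham replicates 1 and 2 came close to the lowest IPF samples and the other sham samples lay far below.
The difference was 1.11 on the log2 scale (standard error 0.31, interval 0.44 to 1.79), or 2.16-fold, with an exact two-sided permutation p of 0.00794, the smallest that 5 against 5 allow. Groups did not overlap in 7.29% of all genes tested, and the IPF group was the higher in 4.52%. The reads behind it were few, 32 to 51 per IPF sample and 7 to 31 per sham sample. Its limma adjusted p of 0.0603 lay just above 0.05. It was 0.0352 without sham replicate 1 and 0.0366 without sham replicate 2, and ranged from 0.0312 to 0.130 over the 19 alternatives tried. Of the liver genes, Alb was at 0.326 to 0.745 FPKM in IPF and 0.319 to 0.616 FPKM in sham samples, and Serpina1a and Fgb had no read in any sample.

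Ren1 encodes renin, the aspartic protease that starts the cascade (ENSMUSG00000070645, chromosome 1, 133350510 to 133360325). It had 0 reads in all 10 samples. With a floor of 3 reads per sample, this allows a level of up to 0.0958 to 0.119 FPKM, depending on the depth of the sample, for counting error only. Atp6ap2, which encodes a membrane protein that binds prorenin and serves the vacuolar proton pump, was the most abundant of the wider pathway genes, at 39.8 ± 3.63 FPKM in IPF and 39.5 ± 1.03 FPKM in sham (SD, n = 5 each). Its log2 difference was 0.0074, with an interval of -0.14 to 0.15.

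Ace encodes ACE itself and is the most abundant of the 9 genes (ENSMUSG00000020681, chromosome 11, 105967945 to 105989964). The IPF samples, from replicate 1 to 5, were at 267.0, 193.8, 225.8, 253.7 and 337.6 FPKM. The sham samples were at 330.0, 285.7, 302.0, 300.05 and 314.4 FPKM. So 4 of the 5 IPF samples lay below every sham sample and replicate 5 lay above every one.
Over all samples Ace differed by -0.28 on the log2 scale (standard error 0.13, interval -0.57 to -0.0015), 0.821-fold. The interval ended just below 0, but the limma adjusted p of 0.254 did not pass 0.05 (exact two-sided permutation p = 0.0714). This rested on 1 library: leaving out IPF replicate 5 gave -0.39 (limma adjusted p = 0.0392, where the 20 alternatives gave 0.0392 to 0.456). In that fit 1620 of all 20554 genes passed, against 1196 of 20448 with all samples. Each sample held between 17078 and 31583 reads of Ace.
Ace is abundant in endothelium. The summed level of 10 pan-endothelial genes, among them Pecam1 and Cdh5, was 1394.7 to 1605.0 FPKM in IPF and 1264.9 to 1323.9 FPKM in sham samples. Of the 10, only Cldn5, a tight junction gene, passed the limma test, and it was higher in IPF (log2 fold change 0.56, limma adjusted p = 0.0107). Among all 10, 8 were measured higher and 2 lower, with a median log2 fold change of 0.12. The part of endothelial genes in the level of Ace was not tested.

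Agtr1a encodes the AT1a receptor, the main receptor for angiotensin II in mice, which couples to Gq proteins (ENSMUSG00000049115, chromosome 13, 30336441 to 30382867). The IPF samples, from replicate 1 to 5, were at 8.498, 8.51, 6.83, 9.36 and 13.2 FPKM. The sham samples were at 14.8, 11.3, 12.3, 10.4 and 11.1 FPKM. As for Ace, replicates 1 to 4 of IPF lay below every sham sample. Replicate 5 lay within the sham range here, and above it for Ace.
The log2 fold change was -0.39 (standard error 0.16, interval -0.73 to -0.04), 0.765-fold (limma adjusted p = 0.193; exact two-sided permutation p = 0.0556). Without IPF replicate 5 it was -0.52 (limma adjusted p = 0.0219, where the 20 alternatives gave 0.0219 to 0.341), in the same fit where 1620 of all 20554 genes passed. The summed level of 7 markers of pericytes, a cell type that carries this receptor, was 266.0 to 323.3 FPKM in IPF and 273.1 to 302.7 FPKM in sham samples. Of the 7, only Cspg4, a proteoglycan gene, passed the limma test, and it was lower in all 5 IPF samples than in every sham sample (log2 fold change -0.43, limma adjusted p = 0.0173). Among all 7, 5 were measured higher and 2 lower, with a median log2 fold change of 0.078. The part of pericyte genes in the level of Agtr1a was not tested.

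**Figure D2:**
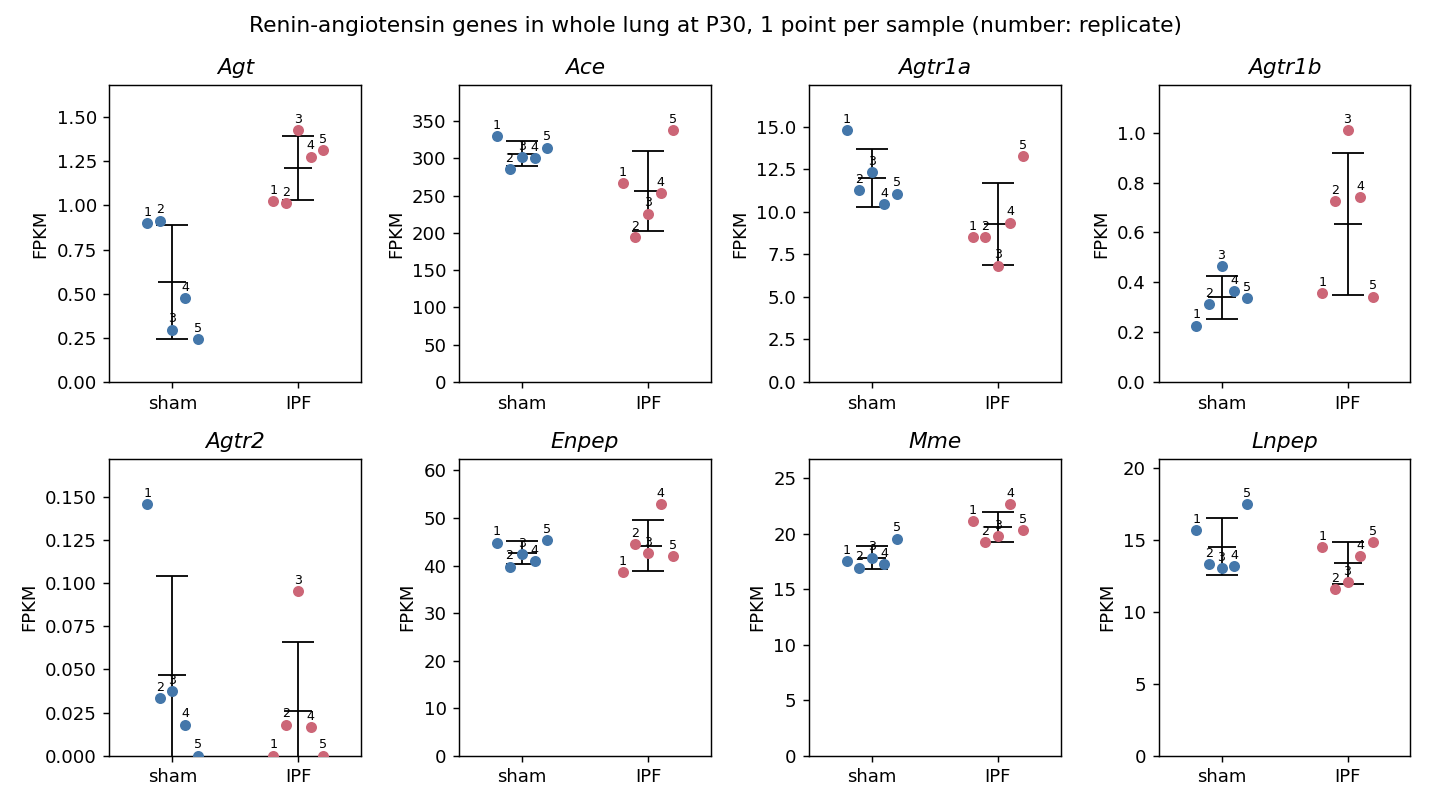
FPKM of the 8 members with any read, on the vertical axis from 0, for 5 sham (blue) and 5 IPF (red) samples, with the replicate number beside each point and black bars for the mean and SD of each group, not drawn below 0. Agt shows no overlap between the groups, and Ace and Agtr1a show IPF replicate 5 above and within the sham range (337.6 and 13.2 FPKM).

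IPF replicate 5 stood apart from the other IPF samples in genes outside this system as well. Tsc22d3, which glucocorticoids and mineralocorticoids induce, was at 155.5 FPKM in that sample, at 53.5 to 78.2 FPKM in the other IPF samples and at 147.8 to 182.5 FPKM in sham samples. Nr1d2, a repressor of the circadian clock, was at 17.3 FPKM there, against 2.79 to 4.58 FPKM and 43.1 to 47.1 FPKM. Neutrophil genes were high in the same sample, with 294.7 FPKM summed over 6 genes, where the other IPF samples had 51.9 to 72.7 FPKM and the sham samples 14.5 to 71.5 FPKM. The part of clock, glucocorticoid or neutrophil genes in the levels of Ace and Agtr1a was not tested.

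**Figure D3:**
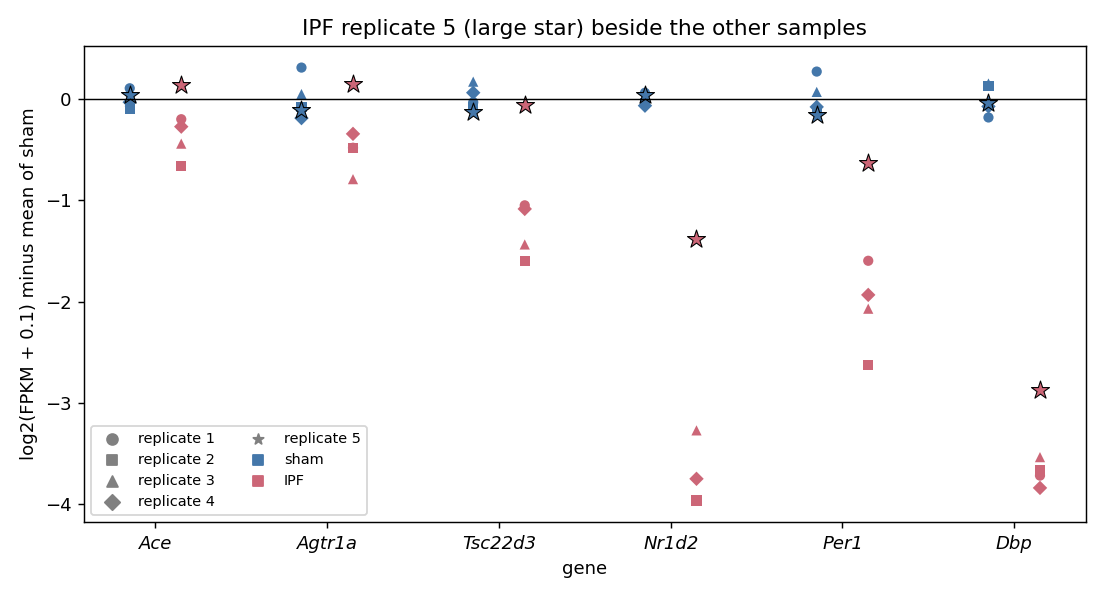
Difference of each sample from the mean of sham, as log2(FPKM + 0.1) on the vertical axis, for Ace, Agtr1a, the hormone-induced gene Tsc22d3 and the clock genes Nr1d2, Per1 and Dbp (blue sham, red IPF; marker shape gives the replicate). The large red star, IPF replicate 5, is at 0.14 for Ace and 0.16 for Agtr1a, and at -1.38 for Nr1d2, where the other IPF samples lie from -3.96 to -3.27.

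Agtr1b encodes the AT1b receptor, a paralog of AT1a on another chromosome (ENSMUSG00000054988, chromosome 3, 20314473 to 20367177). The IPF samples, from replicate 1 to 5, were at 0.356, 0.726, 1.01, 0.741 and 0.342 FPKM. The sham samples were at 0.226, 0.312, 0.464, 0.364 and 0.336 FPKM. Replicates 2, 3 and 4 of IPF lay above every sham sample and the other 2 lay within the sham range. With 8 to 41 reads per sample, the difference on the log2 scale was 0.67 (interval 0.04 to 1.30; limma adjusted p = 0.221; exact two-sided permutation p = 0.0714). Reads that the 2 AT1 genes share could have been counted on either.
Agtr2 encodes the AT2 receptor, best known from fetal tissue (ENSMUSG00000068122, chromosome X, 21484544 to 21489164). It had 0 to 6 reads per IPF sample and 0 to 8 per sham sample, too few to compare. Only IPF replicate 3 and sham replicate 1 held more than 3 reads.

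The 3 membrane peptidases of the list varied little. Mme, neprilysin, which also degrades natriuretic peptides and tachykinins, lies on chromosome 3 (ENSMUSG00000027820, 63241537 to 63386030). The IPF samples, from replicate 1 to 5, were at 21.1, 19.3, 19.8, 22.7 and 20.3 FPKM, and the sham samples at 17.5, 16.9, 17.9, 17.3 and 19.6 FPKM. All IPF samples but replicate 2 lay above every sham sample, of which replicate 5 was the highest.
The log2 fold change of Mme was 0.21 (standard error 0.06, interval 0.08 to 0.34), 1.16-fold, with an exact two-sided permutation p of 0.0159 and a limma adjusted p of 0.0700. The limma adjusted p was 0.0467 without sham replicate 5, and the 20 alternatives gave 0.0324 to 0.160. Mme is also carried by alveolar type 1 cells and fibroblasts. The summed level of 6 alveolar type 1 genes was 1575.3 to 2051.5 FPKM in IPF and 1721.6 to 1904.5 FPKM in sham samples, and that of 8 fibroblast genes was 687.5 to 865.4 FPKM and 749.1 to 903.3 FPKM. None of the alveolar type 1 genes passed. At an unadjusted p under 0.05 from limma there were 2 of them, Pdpn and Aqp5, both lower in IPF (log2 fold change -0.31 and -0.21). Among all 6, 3 were measured higher and 3 lower, with a median log2 fold change of -0.0033. Of the fibroblast genes only Pdgfra, a growth factor receptor, passed, higher in all 5 IPF samples than in every sham sample (log2 fold change 0.35, limma adjusted p = 0.0212). Among all 8, 2 were measured higher and 6 lower, with a median log2 fold change of -0.080. The part of these cell types in the level of Mme was not tested.
Enpep, aminopeptidase A of pericytes (ENSMUSG00000028024, chromosome 3, 129269175 to 129332720), was at 38.6 to 52.9 FPKM in IPF and 39.8 to 45.4 FPKM in sham samples. Its log2 fold change was 0.04, and the interval of -0.13 to 0.22 bounds any difference on this scale (limma adjusted p = 0.823). Lnpep, which also travels with the glucose transporter of fat and muscle cells (ENSMUSG00000023845, chromosome 17, 17521410 to 17625050), was at 11.6 to 14.9 FPKM in IPF and 13.02 to 17.5 FPKM in sham samples. Its log2 fold change was -0.11, with an interval of -0.34 to 0.11 (limma adjusted p = 0.593).

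The wider pathway was followed on a list of 21 genes: other enzymes that form or cut angiotensins, receptors of other angiotensin peptides, the prorenin receptor and proteins that bind the receptors. Of these, 19 were tested, 2 rose, none fell and 17 did not pass, with a median log2 fold change of 0.20. Over all genes tested, 3.71% rose and 2.14% fell. At an unadjusted p under 0.05 from limma there were 9 of the 19, and 19.5% of all genes, with 13 of the 19 measured higher and 6 lower. Without IPF replicate 5, 6 of the list passed, and so did 1620 of all 20554 genes tested in that fit, against 1196 of 20448 with it.
Both genes that rose are proteases of mast cells. Cpa3, a carboxypeptidase that can trim angiotensin I, was at 4.57, 7.12, 4.95, 5.90 and 1.75 FPKM in IPF replicates 1 to 5 and at 0.554 to 1.21 FPKM in sham samples. This was a log2 fold change of 2.20 (standard error 0.33, limma adjusted p = 0.00345). Cma1, a chymase, was at 0.467 to 1.26 FPKM in IPF and 0.167 to 0.386 FPKM in sham samples (log2 fold change 1.21, limma adjusted p = 0.0211). It rested on 9 to 25 reads per IPF sample and 3 to 7 per sham sample, and its limma adjusted p was 0.0542 to 0.0570 when IPF replicate 1, 2 or 4 was left out. The groups did not overlap for either gene.
Some chymases can form angiotensin II without ACE, and whether the product of mouse Cma1 does so was not tested. The other chymase on the list, Mcpt4, did not pass (log2 fold change 0.85, limma adjusted p = 0.220), with 2 to 11 reads per IPF sample and 1 to 5 per sham sample. Of 7 mast cell markers, which include Cpa3 and Mcpt4, 5 were tested and only Cpa3 passed. All 5 were measured higher in IPF, and 3 of them, Cpa3 and Mcpt4 included, were at an unadjusted p under 0.05 from limma. The median log2 fold change of the 5, 0.85, is the value of Mcpt4 itself. Kit and Hdc, which are not proteases, had 0.10 and 0.39 (limma adjusted p = 0.353 and 0.417). The summed level of the 7 was 47.4 to 54.1 FPKM in IPF and 40.1 to 45.1 FPKM in sham samples, mostly from Kit, which other lung cells express too. The part of mast cell genes in the levels of Cpa3 and Cma1 was not tested.
Mas1, the receptor of angiotensin 1-7, had 0 to 5 reads per IPF sample and 3 to 16 per sham sample (log2 fold change -0.84, limma adjusted p = 0.243). In FPKM, 4 of the 5 IPF samples lay below every sham sample. Among these 4, IPF replicate 3 held 3 reads, as did the lowest sham sample, replicate 2, so they differ by scaling only. Mrgprd, another receptor of angiotensin peptides, had no read in any sample.
The other abundant genes of the list did not pass either. Anpep, aminopeptidase N, was at 20.1 ± 3.76 FPKM in IPF and 15.9 ± 1.07 FPKM in sham (SD, n = 5 each). This was 0.32 on the log2 scale, with a limma adjusted p of 0.139. Mtus1, whose product binds the AT2 receptor, was at 25.99 ± 2.18 against 30.01 ± 1.71 FPKM (SD, n = 5 each). This was -0.21 on the log2 scale, with a limma adjusted p of 0.0974. Ctsa, a lysosomal carboxypeptidase, and Dpp3, a dipeptidyl peptidase that degrades angiotensin II, had log2 fold changes of 0.07 and -0.08.

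**Figure D4:**
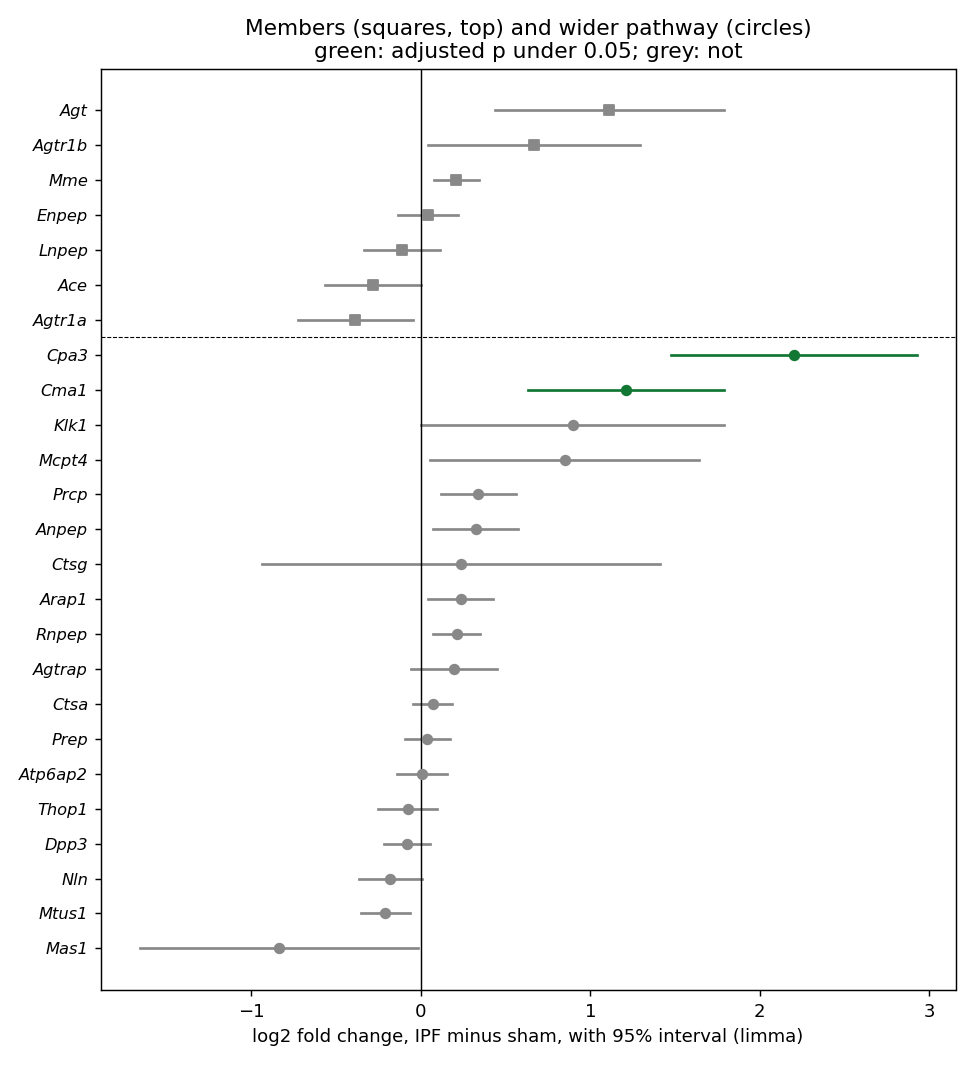
log2 fold change of IPF minus sham on the horizontal axis, with its 95% interval from limma, for the 7 members tested (squares, above the dashed line) and the wider pathway genes shown (circles). The 2 genes in green, Cpa3 at 2.20 and Cma1 at 1.21, had a limma adjusted p under 0.05, and the 7 members, in grey, did not.

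Downstream of the AT1 receptors, 15 genes for G proteins, phospholipases, receptor kinases and arrestins were tested and 1 passed, a share near the 5.85% of all genes. At an unadjusted p under 0.05 from limma there were 9 of the 15, and 19.5% of all genes. Of the 15, 11 were measured higher and 4 lower. Grk5, a kinase that phosphorylates activated receptors, was at 39.0, 36.5, 32.7, 37.6 and 38.3 FPKM in IPF replicates 1 to 5 and at 25.6 to 30.6 FPKM in sham samples. The log2 fold change of 0.36 had a standard error of 0.07 and passed without overlap (limma adjusted p = 0.00873). The median of the 15 genes was 0.13.
ACE and neprilysin also cut kinins and tachykinins. Of 15 genes for these peptides, their receptors and other peptidases that cut them, 9 were tested and 1 passed, where 5.85% of all genes did. Xpnpep1, an aminopeptidase that inactivates bradykinin, fell by 0.23 on the log2 scale, from 10.4 ± 0.561 FPKM in sham to 8.87 ± 0.263 FPKM in IPF (SD, n = 5 each; limma adjusted p = 0.0290). All 5 IPF samples lay below all sham samples, but the limma adjusted p was 0.0519 to 0.0767 in 8 of the 10 fits that left out 1 sample, and passed without IPF replicate 5 or sham replicate 1. Kng1, a kininogen gene, and Tac1, which encodes the precursor of substance P, had no read in any sample. Kng2, the other kininogen gene of the list, had 0 to 6 reads per IPF sample and 0 to 3 per sham sample.
Angiotensin II also drives the release of aldosterone, which acts through the mineralocorticoid receptor. Of 9 genes of aldosterone synthesis and response, 7 were tested and 2 passed, both lower in IPF, where 2.14% of all genes were. Hsd11b2, which inactivates glucocorticoids and so keeps them off that receptor, was at 0.750 to 1.35 FPKM in IPF and 1.58 to 2.42 FPKM in sham samples (log2 fold change -0.90, standard error 0.16, limma adjusted p = 0.00850). Tsc22d3 was the other (log2 fold change -1.04, limma adjusted p = 0.0247), and it passed in 4 of the 10 fits that left out 1 sample, those without IPF replicate 5 or sham replicate 1, 2 or 5, with 0.0518 to 0.0634 in the others. The receptor gene Nr3c2 had a log2 fold change of 0.03 and the aldosterone synthase gene Cyp11b2 had no read in any sample.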

How the data were processed

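RNA of whole lung from 5 IPF and 5 sham mice at P30 was sequenced. The authors deposited FPKM values per gene, made, by their methods, with Fastp, HISAT2 and StringTie. The methods name GRCm39, but the last gene on chromosome 1 ends at 195323493, beyond the 195154279 bases of that chromosome in GRCm39, and all 9 members overlap their GRCm38 positions in RefSeq. The submitters' processing notes list hg38, GRCm38, mm10 and Bowtie 0.12.2, without roles. The methods and the labels name different library kits, so the strand setting is unknown.
Each FPKM value times gene length comes in whole steps of fixed size within a sample, from which reads were recovered: 100% of values were whole within 0.001 of a read, or 1e-06 of the value for large counts. This gave 15483046 to 19026843 reads on genes per sample. Read limits cover counting error only.
Genes with a mean of at least 0.1 FPKM (20448) were tested with limma 3.58.1 (R 4.3.3) on log2(FPKM + 0.1), with a variance trend, without covariates, and Benjamini-Hochberg adjustment. Single genes also had an exact two-sided permutation test over the 252 assignments of 5 against 5. The fit was tested on simulated data. Python 3.11.15 and matplotlib 3.10.9 served for tables and plots. Alternatives were other pseudocounts, filters, scalings and variance models, voom on the recovered reads, a replicate block and leaving out each sample.
The members and gene lists were chosen with earlier results of these data known. The text names the members, every gene of the wider pathway, AT1 coupling, kinin and mineralocorticoid lists with an adjusted p under 0.05, the 5 most abundant wider pathway genes, Mas1 and Atp6ap2, and for each member with a mean of at least 1 FPKM the 3 genes most like it. Some genes that this rule names are not reported here. Mcpt4, Mrgprd, Kng1, Kng2, Tac1, Nr3c2, Cyp11b2, Nr1d2 and the marker genes were named besides, after their values were seen.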

Additional observations from a re-analysis of the deposited data

Results flagged for a closer look

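In 3 of 28 groups of 5 samples tested, over 15 genes, the highest sample lay further from the others than Dixon's 95% critical value allows, which chance does in about 1 of 20 groups. Agtr2 was at 0.0954 FPKM in IPF replicate 3, where the next IPF sample was at 0.0180 FPKM, and at 0.146 FPKM in sham replicate 1, where the next sham sample was at 0.0375 FPKM. These stand for 6 and 8 reads. Tsc22d3 was at 155.5 FPKM in IPF replicate 5, where the next IPF sample was at 78.2 FPKM.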

How the results depend on the processing

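Of 358 values recomputed under 21 settings, 289 kept their direction and their side of the threshold, or stayed within 1.5 times for a count. Of the members, 0 passed in the reported fit and 1 passed with a pseudocount of 1, quantile normalization, array weights or voom, with 0 to 2 when 1 sample was left out. Agt was the member with a pseudocount of 1 (log2 fold change 0.52), quantile normalization (1.12) and voom (1.24), and Mme with array weights (0.23). With 1 sample left out, log2 fold changes ranged from 0.91 to 1.30 for Agt, -0.39 to -0.19 for Ace, -0.52 to -0.29 for Agtr1a and 0.17 to 0.24 for Mme. Enpep turned to -0.019 with quantile normalization and -0.024 without IPF replicate 4, and reached 0.089 with other samples left out. The wider pathway count of 2 became 1 with a filter at a mean of 1 FPKM, which removes Cma1, Agt and Agtr1b from the test, 5 with array weights and 1 to 6 with 1 sample left out. The AT1 coupling count of 1 became 3 with array weights, 2 with voom and 1 to 2 with 1 sample left out. The kinin count of 1 became 0 without a variance trend, 2 with array weights and 0 to 2 with 1 sample left out. The mineralocorticoid count of 2 became 1 without a variance trend and 1 to 3 with 1 sample left out. The causes were not tested. Over all genes, the 1196 calls became 1171 with a pseudocount of 1, 1192 with quantile normalization, 1464 with voom and 1749 with array weights. With 1 sample left out they ranged from 775, without IPF replicate 4, to 1620, without IPF replicate 5.
Samples with the same replicate number in both groups had deviations that correlated at -0.020 to 0.095 over genes, none above the 0.1 required, so the numbers were not taken as pairs. As a hint from the data the other way, 3 of 5 IPF samples correlated best with their own number. With a replicate block, 1045 genes passed, 0 of the members and 0 kinin genes, and the limma adjusted p was 0.0584 for Xpnpep1, 0.0506 for Tsc22d3 and 0.119 for Agt. Few reads limit what can be said of Agt, Agtr1b, Agtr2, Cma1, Mcpt4 and Mas1.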

Other observations

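For the 5 members with a mean of at least 1 FPKM, the genes with the most similar level over the 10 samples were found by Pearson's r of log2(FPKM + 0.1), after the mean of each group was subtracted, among genes with a mean of at least 1 FPKM. These r describe 10 samples that share depth and RNA quality differences, and each gene was picked as the highest of all. For Ace they were Ppp1r13b (r = 0.9753), Rgs12 (0.974) and Rnf10 (0.973), and for Agtr1a they were Taf5 (0.976), Plscr4 (0.968) and Mau2 (0.955). Enpep was closest to Kcnk5 (0.947), AI506816 (0.902) and Trpc6 (0.886). Mme was closest to Sirpa (0.954) and Uba1 (0.933). Lnpep was closest to Rabgap1 (0.980), Gpatch2l (0.979) and 1700020I14Rik (0.978).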
